A study of Homo sapiens with 12 samples.

Results

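The effect of SFRP2 overexpression was described in PC3 cells grown on collagen I. PC3 is an established human prostate cancer line that was derived from a bone metastasis. The comparison was defined by its labels and was chosen with earlier results of these data known. It takes the 3 libraries of SFRP2-overexpressing cells on collagen I (COL1-PC3SFRP2) against the 3 libraries of control cells on collagen I (COL1-PC3), which makes 6 of the 12 libraries of the series. The other 6 libraries are the same 2 lines on uncoated cell culture plastic (CCP-PC3SFRP2 and CCP-PC3, 3 libraries each), and they entered the fits to help estimate the spread. Both lines had been transfected with a Sleeping Beauty transposon plasmid carrying a red fluorescent protein and puromycin resistance and had been sorted by flow cytometry, so the control line shares these features and carries no SFRP2 insert. The collagen was coated onto the plastic, 100000 cells were seeded and RNA was taken after 5 days. No second, independently made line of either kind is named, so the contrast is between 1 SFRP2 line and 1 control line. The labels call the 3 libraries of a group biological replicates without saying that they came from separate cultures, so the p-values below measure only the spread between these libraries.

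SFRP2 encodes a secreted frizzled-related protein, a soluble protein with a domain like that of the WNT receptors, through which it can bind WNT ligands outside the cell. It is made in the endoplasmic reticulum (ER), where chaperones such as BiP, the product of HSPA5, and protein disulfide isomerases fold secreted proteins and close their disulfide bonds. When folding capacity falls short, the sensors ATF6, IRE1 and PERK raise the transcription of chaperones and of the ER-associated degradation machinery, a program known as the unfolded protein response. Collagen I is the main protein of bone matrix, and cells bind it through integrins and discoidin domain receptors.

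Library depth was modest, from 5893267 to 9059700 counts in COL1-PC3 and from 5529459 to 6309800 in COL1-PC3SFRP2. The cells carried the markers of an epithelial carcinoma line: KRT8, KRT18, VIM and CD44 were present in all 6 libraries, while KLK2, KLK3 and FOLH1, which mark luminal prostate cells, were at or near 0, as is known for PC3. Marker genes of leukocytes summed to at most 1.22 CPM (counts per 1e+06 counts of the library) and those of skeletal muscle to at most 2.54 CPM. The sums reached 17.9 CPM for fibroblast, 17 CPM for endothelial and 68.4 CPM for neural marker genes. For chondrocyte marker genes the sum reached 622 CPM, in the third COL1-PC3SFRP2 library, where SOX9 gave 495 CPM and COL2A1 123 CPM. In bulk RNA, fewer cells of a kind and less RNA per cell cannot be told apart.

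The third COL1-PC3SFRP2 library stood apart from the other 2. Over 13654 genes its log2 CPM correlated with those of libraries 1 and 2 at Pearson r = 0.884 and 0.915, against 0.983 between these 2 libraries. Its counts equalled, at all 60676 genes, those of a column numbered 4 in a larger deposited sheet, while the column of that larger sheet bearing its own name held other values (equal at 664 of the 23095 genes with counts in either). That other column had 7300197 counts and carried the transgene, but it correlated with COL1-PC3SFRP2 libraries 1 and 2 at only 0.896 and 0.929, and with the 3 CCP-PC3SFRP2 libraries at 0.978 to 0.980. Which of the 2 columns belongs to the labelled sample cannot be told from the files. The results are therefore also given without the third library, and each gene list is also counted with the other column in its place. Few calls of single genes were kept with that column, and those said below to be called in all 4 comparisons need not include it.

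SFRP2 itself checked the labels. Its level was 24.6, 19.9 and 10.8 CPM of the library total in COL1-PC3 and 16459, 10802 and 28200 CPM in COL1-PC3SFRP2, so the groups did not overlap and the third library was the highest. The log2 fold change was 9.95 (SE 0.54, edgeR quasi-likelihood test with Benjamini-Hochberg adjustment, adjusted p = 1.17e-07) and 9.19 without the third library and with the GC correction described below. The gene lies on the minus strand of chromosome 4 (GRCh38, chr4:153780591-153789083). The counts do not separate transcripts of the transgene from those of the endogenous gene.

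Between COL1-PC3SFRP2 and COL1-PC3, 3681 of 20364 genes tested rose (18.1%) and 3476 fell (17.1%) at an adjusted p under 0.05 in edgeR's quasi-likelihood test with Benjamini-Hochberg adjustment. Without the third library 3381 of 20103 rose (16.8%) and 3550 fell (17.7%), and 3039 of the genes that rose and 3183 of those that fell were called the same way with all 6 libraries. Leaving out COL1-PC3 library 3 in turn gave 4401 genes in either direction, beside 7157 with all 6. With the other column in place of the third COL1-PC3SFRP2 library only 223 of 20404 genes passed (1.09%), of which 75 rose (0.368%) and 148 fell (0.725%). Past a log2 fold change of 2 in either direction, 333 genes rose (1.64%) and 404 fell (1.98%) with all 6 libraries.

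The fold changes followed the GC content of the transcripts. Across 13654 genes the Spearman correlation of GC content with the log2 fold change was 0.81, and 0.73 without the third library. This is a correlation across genes, which share the libraries and are not independent replicates. Of 10 equal groups of genes by GC content, the lowest (median 36.8% GC) had a median log2 fold change of -1.26, and in it 76.4% of the genes fell while 0.293% rose. The highest (median 63.9% GC) had a median of 1.24, and in it 74.3% rose while 0.512% fell. Without the third library the medians of these 2 groups were -0.94 and 0.86. On uncoated plastic the same contrast of lines gave a correlation of 0.14.

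Single libraries showed the trend too. Relative to the mean of the COL1-PC3 libraries, the Spearman correlation of GC content with the log2 ratio was 0.77, 0.65 and 0.83 in the 3 COL1-PC3SFRP2 libraries. In the COL1-PC3 libraries, each set against the mean of the other 2, it was 0.58, -0.09 and -0.55, and in the other column for the third library it was -0.43. The trend thus had the same sign in all 3 COL1-PC3SFRP2 libraries and differed in sign within COL1-PC3. A trend that all 3 libraries of a group share cannot be told apart from that group, and its part in the fold change of a single gene was not tested.

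**Figure D1:**
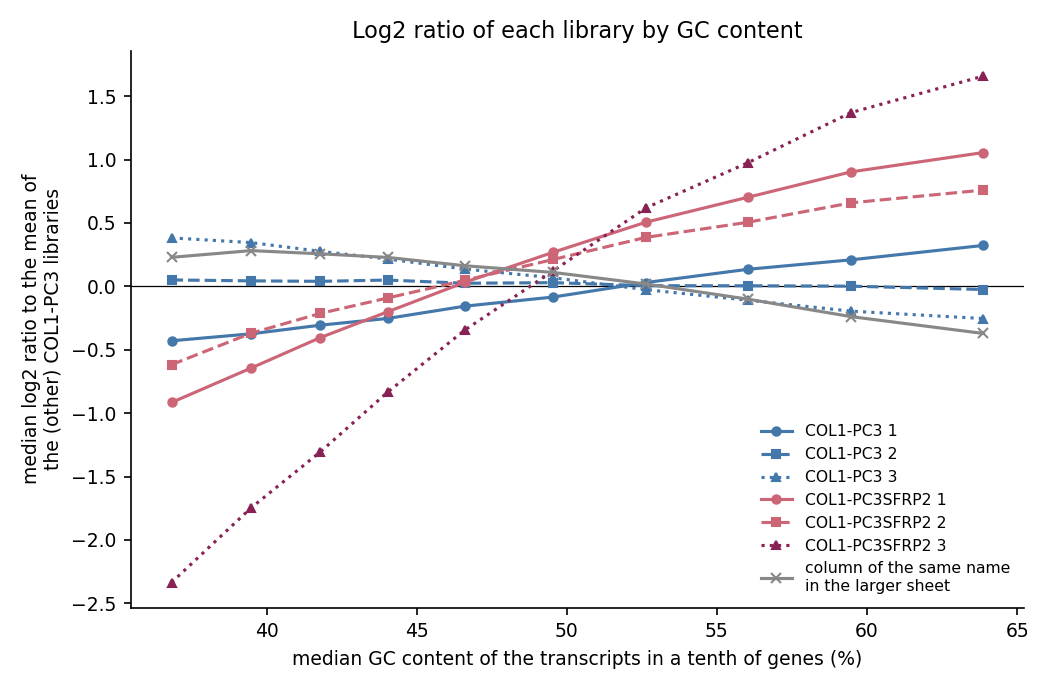
Median log2 ratio of each collagen library to the mean of the (other) COL1-PC3 libraries (y axis) in 10 equal groups of genes by transcript GC content (x axis, median GC of the group in percent), 1 line a library, with the other column of the third library's name drawn apart. The 3 COL1-PC3SFRP2 lines climb with GC content, the third most steeply, while the COL1-PC3 lines and the other column do not share a direction.

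To find genes whose change did not follow GC content, the contrast was refitted with a GC and length correction for each library. With it, 1549 of 20280 genes rose (7.64%) and 1642 fell (8.1%), and the correlation of fold change with GC content was 0.01. Without the third library the corrected fit called 1800 of 20019 genes higher (8.99%) and 2215 lower (11.1%), and the medians of the 10 groups lay between -0.05 and 0.03. Genes called in the same direction in all 4 of these comparisons (with and without the third library, with and without GC correction) numbered 687 that rose (3.43%) and 1021 that fell (5.1%). When the comparison with the other column, the last of 5, was required to give the same call, 51 rose (0.255%) and 66 fell (0.33%). The other column with GC correction gave 3.57% of genes that rose and 4.43% that fell, and was not among the 5. The comparisons share the COL1-PC3 libraries, so these are counts of stable calls and not independent repeats.

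**Figure D2:**
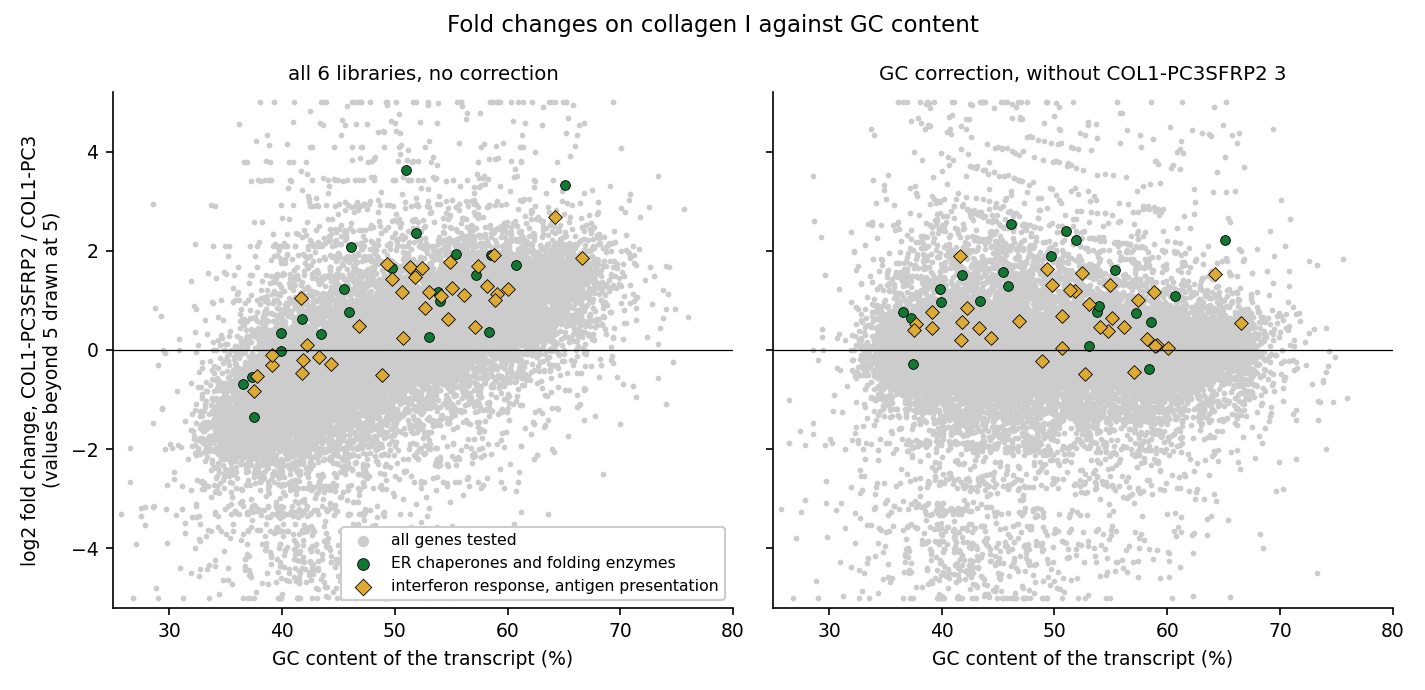
Log2 fold change of COL1-PC3SFRP2 against COL1-PC3 for each gene (y axis) by GC content of its transcript (x axis, percent), over all 6 libraries without correction (left) and with GC correction and without the third COL1-PC3SFRP2 library (right). Values beyond 5 on the log2 scale are drawn at 5. Grey points are all genes tested, whose cloud slopes upwards on the left and is level on the right, where most of the 22 ER chaperone genes (green) and more of the 35 interferon genes (yellow) lie above 0 than below it.

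ER chaperones and folding enzymes formed a group whose change did not follow GC content. All 22 listed genes were tested, with a median transcript GC of 50.4%. In the full comparison 11 rose (50%) and 1 fell (4.55%), beside 18.1% and 17.1% of all genes. Without the third library 17 rose (77.3%) and 1 fell (4.55%), beside 16.8% and 17.7%. With GC correction and without that library 17 rose (77.3%) and 1 fell (4.55%), beside 8.99% and 11.1%. The list's median log2 fold change was 1.08 in the full comparison and 1.04 in the last of these, beside 0.01 over all genes tested in the full comparison. With the other column, 13 of the 22 rose and none fell by the same edgeR test (16 higher and 0 lower at an unadjusted p under 0.05), beside 0.368% of all genes that rose there. Of the 12 genes that rose most among those called in all 5 comparisons, 6 belonged to this list: HSPA5, PDIA4, SDF2L1, MANF, HYOU1 and PDIA6.

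HSPA5 (ENSG00000044574, minus strand, chr9:125234853-125241382 in GRCh38) encodes BiP, the main chaperone of the ER lumen. Levels are given from here on as CPM after TMM scaling, unless said to be of the library total. The level of HSPA5 was 243, 254 and 314 CPM in COL1-PC3 and 1412, 1457 and 537 CPM in COL1-PC3SFRP2. The groups did not overlap, and the third library had the lowest level of its group. The log2 fold change was 2.07 (SE 0.28, edgeR adjusted p = 0.000395) in the full comparison and 2.54 with GC correction and without the third library. On uncoated plastic the gene rose as well, by a log2 fold change of 1.95 (edgeR adjusted p = 0.00742).

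PDIA4 (minus strand, chr7:149003062-149028662), a disulfide isomerase, was at 150, 141 and 136 CPM in COL1-PC3 and at 880, 717 and 582 CPM in COL1-PC3SFRP2. Here all 3 SFRP2 libraries were well above all control libraries, and the log2 fold change of 2.35 (SE 0.17, edgeR adjusted p = 4.26e-06) became 2.22 with correction and without the third library. SDF2L1 (plus strand, chr22:21642302-21644299), a partner of ER co-chaperones of the DNAJB11 kind, was at 5.57, 5.68 and 5.55 CPM in COL1-PC3 and at 51, 42.8 and 75.4 CPM in COL1-PC3SFRP2. In the full comparison it had the largest fold change of the list among genes called in all 5 comparisons, 3.33 on the log2 scale (SE 0.25, edgeR adjusted p = 4.26e-06). With correction and without the third library its log2 fold change was 2.22, below the 2.54 of HSPA5. MANF, a secreted protein of the stressed ER, was at 96.8, 89 and 112 CPM in COL1-PC3 and at 388, 406 and 146 CPM in COL1-PC3SFRP2. HYOU1, a large chaperone of the HSP70 family that acts as nucleotide exchange factor for BiP, was at 66.7, 65.2 and 60.3 CPM against 290, 262 and 185 CPM, and PDIA6 at 65.8, 65.4 and 69.6 CPM against 167, 187 and 116 CPM. In MANF, HYOU1 and PDIA6 the groups did not overlap, and the third library again had the lowest level among the SFRP2 libraries. They rose by 1.66, 1.94 and 1.23 on the log2 scale.

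Other chaperones passed the test only in some of the comparisons. HSP90B1, which encodes GRP94, was at 388, 443 and 559 CPM in COL1-PC3 and at 844, 1060.3 and 246 CPM in COL1-PC3SFRP2. The third SFRP2 library lay below every control library, and the log2 fold change of 0.63 in the full comparison did not pass (SE 0.35, edgeR adjusted p = 0.178), whereas it was 1.5 (SE 0.09, edgeR adjusted p = 8.54e-31) with correction and without that library. PDIA3, DNAJB11, DNAJC3 and the lectin chaperone CANX likewise rose once the third library was left out, by 0.65, 1.16, 0.62 and 0.35 on the log2 scale without GC correction. CALR, the soluble lectin chaperone calreticulin, rose in all 4 comparisons, by 1.16 in the full comparison and 0.76 with correction and without the third library. The oxidase gene ERO1A fell by 1.35 on the log2 scale in the full comparison, and by 0.28 (edgeR adjusted p = 0.0123) with correction and without the third library, but did not pass with correction over all 6 libraries (edgeR adjusted p = 0.523) or with the other column (edgeR adjusted p = 0.318). The folding enzyme gene TXNDC5 rose in all 4 comparisons but its call was lost with the other column (edgeR adjusted p = 0.0816), and its reads may be shared with a readthrough transcript.

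Because chaperone genes are known to be controlled through the ER stress response element (ERSE), which reads CCAAT, any 9 bases and CCACG, the 250 bases before the start of each gene were searched for it on both strands in RefSeq promoters of GRCh38.p14. It was found in 22 of 27305 promoters (0.0806%). Among the 21 chaperone and folding genes with a promoter sequence it was found in 6, which are shown because they hold the element in full; capitals mark its fixed letters, on the minus strand read as CGTGG and ATTGG, and each stretch is written along the gene's strand. A match is a description of letters and not of binding.
HSPA5, chr9:125241366-125241434, minus strand: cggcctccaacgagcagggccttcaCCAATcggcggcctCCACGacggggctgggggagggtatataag
HSP90B1, chr12:103930191-103930364, plus strand: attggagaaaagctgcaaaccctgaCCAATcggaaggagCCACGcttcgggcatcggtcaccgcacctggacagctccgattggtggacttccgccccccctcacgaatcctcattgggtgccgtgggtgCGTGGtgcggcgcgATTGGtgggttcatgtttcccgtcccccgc
CALR, chr19:12938359-12938427, plus strand: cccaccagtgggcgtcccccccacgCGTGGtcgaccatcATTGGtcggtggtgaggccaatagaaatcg
CANX, chr5:179698753-179698821, plus strand: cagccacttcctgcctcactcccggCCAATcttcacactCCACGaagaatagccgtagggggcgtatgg
CRELD2, chr22:49918529-49918597, plus strand: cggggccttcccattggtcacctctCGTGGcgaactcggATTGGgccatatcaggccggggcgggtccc
ERO1B, chr1:236282158-236282208, minus strand: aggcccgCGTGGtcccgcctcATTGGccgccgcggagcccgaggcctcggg

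Of these 6 genes, HSPA5, CALR and CRELD2 rose in all 4 comparisons, HSP90B1 and CANX rose in the 3 that left out the third library or corrected for GC content, and ERO1B, at 3.9, 3 and 3.88 CPM in COL1-PC3 and 3, 3.36 and 0 CPM in COL1-PC3SFRP2, passed in none. PDIA4, SDF2L1, MANF, HYOU1 and PDIA6 rose without holding the full element in this window, which says only that these letters are not there.

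Of the 20 tested genes of ER-associated degradation and stress sensing, 9 rose (45%) and 5 fell (25%) in the full comparison, where 18.1% of all genes rose and 17.1% fell. With correction and without the third library 7 rose (35%) and 4 fell (20%), beside 8.99% and 11.1% of all genes, and with the other column 3 rose and 1 fell. HERPUD1, a ubiquitin-like membrane protein of the degradation complex, rose in all 5 comparisons. It was at 40.7, 41.8 and 48.6 CPM in COL1-PC3 and at 132, 114 and 86.8 CPM in COL1-PC3SFRP2, without overlap, with a log2 fold change of 1.34 (SE 0.19, edgeR adjusted p = 0.000406). SELENOS and OS9, 2 further members of the retrotranslocation machinery, and the transcription factor CREB3L2 rose in the 4 comparisons, while DERL1 and EDEM3 fell in them. SELENOS and OS9 also passed with the other column, and CREB3L2, DERL1 and EDEM3 did not. The sensors and their main effector gave no call: ATF6 had a log2 fold change of -0.36 (edgeR adjusted p = 0.13) and XBP1 one of -0.16 (edgeR adjusted p = 0.56), and the counts do not separate the spliced form of XBP1. DERL3 had no count in any COL1-PC3 library and at most 1.6 CPM in COL1-PC3SFRP2, and its call was lost without the third library (edgeR adjusted p = 0.139) or without any 1 of the COL1-PC3 libraries. CREB3L1, a factor activated by cleavage at the Golgi, was at 35.5, 22.7 and 23.5 CPM in COL1-PC3 and at 6.95, 6.11 and 76 CPM in COL1-PC3SFRP2. The first 2 SFRP2 libraries were the lowest and the third was the highest of all 6, so the difference of 0.11 on the log2 scale in the full comparison turned into a fall by 2.04 without the third library.

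Of 24 tested targets of the integrated stress response, in which ATF4 is translated when the PERK kinase or its relatives are active, 12 rose (50%) and 3 fell (12.5%) in the full comparison, beside 18.1% and 17.1% of all genes. With correction and without the third library 6 rose (25%) and 2 fell (8.33%), beside 8.99% and 11.1%. DDIT3, which encodes the stress factor CHOP, rose in all 5 comparisons, from 7.8, 5.37 and 6.21 CPM in COL1-PC3 to 25.4, 19.9 and 17 CPM in COL1-PC3SFRP2. The groups did not overlap, and the log2 fold change was 1.69 (SE 0.25, edgeR adjusted p = 0.000577). ATF4 itself rose by 0.95 and by 0.54 with correction and without the third library. TRIB3, a pseudokinase induced by ATF4 and CHOP, and NUPR1, a small stress protein, rose by 1.75 and 1.34 on the log2 scale in the full comparison and by 0.41 and 0.94 in the corrected one without the third library. DDIT3 was the gene of this list that rose with the other column, where the adjusted p of ATF4, TRIB3 and NUPR1 ran from 0.0789 to 0.187.

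**Figure D3:**
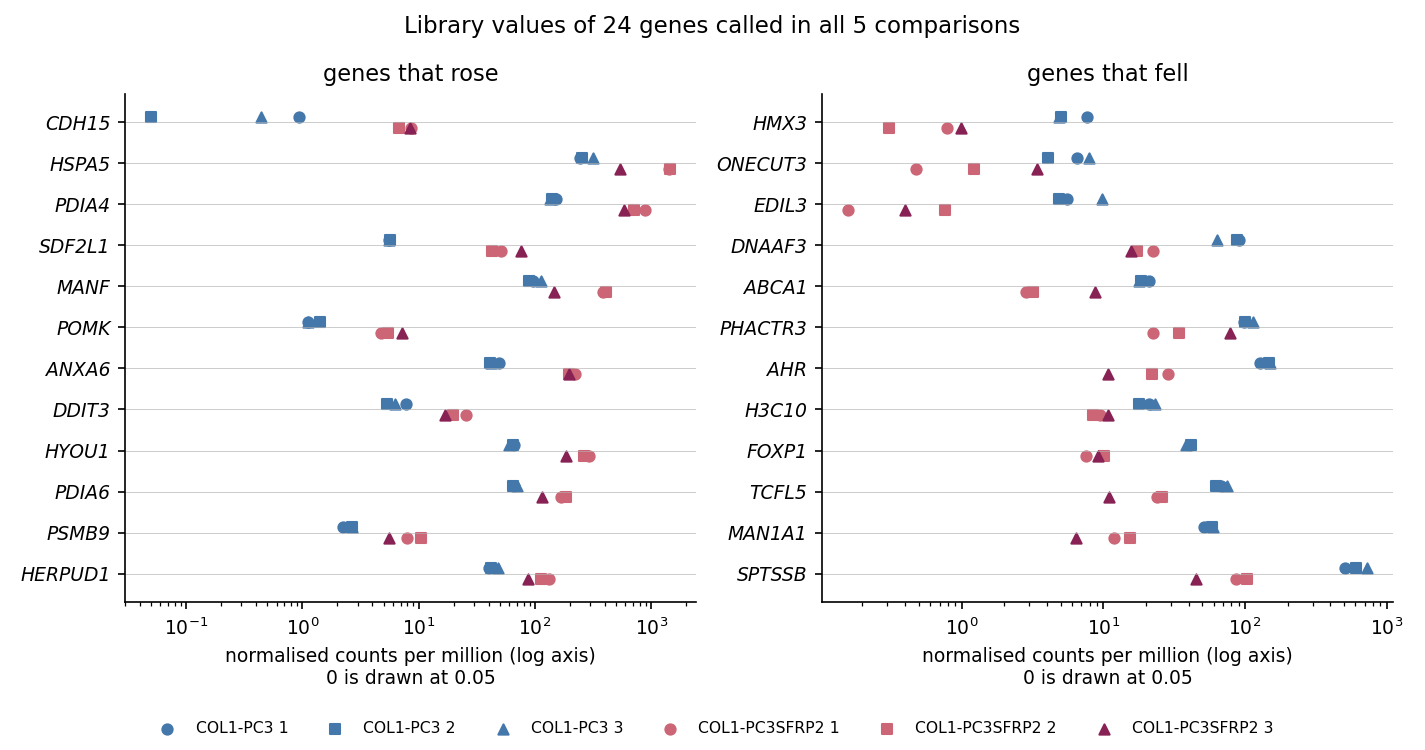
Normalised level (CPM, log axis, 0 drawn at 0.05) of the 12 genes that rose (left) and the 12 that fell (right) most among those called in all 5 comparisons, 1 point a collagen library. In each of the 24 genes every COL1-PC3SFRP2 library (red and purple) lies on 1 side of every COL1-PC3 library (blue). The third library of ONECUT3, PHACTR3 and MANF lies nearest to the control libraries. The genes were picked for their calls, so the separation was largely set by the choice.

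Another group that moved mostly in a single direction was that of interferon response and antigen presentation genes. Of 35 tested, 19 rose (54.3%) and none fell in the full comparison by edgeR's test (19 higher and 1 lower at an unadjusted p under 0.05) and by DESeq2. Of all genes 18.1% rose and 17.1% fell there by edgeR's test. With correction and without the third library 17 rose (48.6%) and 1 fell (2.86%), beside 8.99% and 11.1% of all genes. The list's median log2 fold change was 1.08 and 0.55 in these comparisons. The edgeR fit with the other column had 5 that rose (14.3%) and none that fell (16 and 0 at an unadjusted p under 0.05), beside 0.368% and 0.725% of all genes. On uncoated plastic, where 16 of the 20364 genes changed in all in the full comparison (0.0786%), no gene of this list passed edgeR's test there. In that comparison 5 had an unadjusted p under 0.05 on plastic, and 8 with GC correction and without the third library.

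ISG15 (ENSG00000187608, plus strand), a ubiquitin-like protein that is among the most strongly interferon-induced, was at 47.7, 43.7 and 35.2 CPM in COL1-PC3 and at 199, 214 and 393 CPM in COL1-PC3SFRP2. The groups were far apart, with a log2 fold change of 2.67 (SE 0.26, edgeR adjusted p = 4.69e-05) and of 1.54 with correction and without the third library. PSMB9, a catalytic subunit of the immunoproteasome, which cuts peptides for antigen presentation, was at 2.23, 2.68 and 2.66 CPM against 7.9, 10.5 and 5.59 CPM and rose in all 5 comparisons. PSMB8, its partner subunit, was at 16.5, 9 and 13.2 CPM against 43.4, 44.2 and 44.1 CPM, and TAP1, the peptide transporter, at 10.2, 8.05 and 7.77 CPM against 26.7, 25.2 and 31.9 CPM. In none of these 3 did the groups overlap.

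The antiviral GTPase genes MX1 and MX2, the oligoadenylate synthetase-like gene OASL, the factors IRF7 and STAT2, IFI35, the deubiquitinase gene USP18 and the non-classical class I gene HLA-E rose in all 4 comparisons. The classical class I genes HLA-B and HLA-C rose by 1.01 and 1.22 on the log2 scale in the full comparison, but with correction and without the third library their log2 fold changes were 0.09 and 0.04, neither of which passed. The 5 genes that passed with the other column were ISG15, PSMB8, PSMB9, TAP1 and OASL. Reads of HLA-B and HLA-C are hard to assign among near-identical copies.

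The core of the interferon-stimulated response element, which reads GAAA, any 2 bases and GAAA, was searched in the same windows and found on either strand in 839 of 27305 promoters (3.07%), in 14 of the 26 interferon list genes with a promoter sequence and in none of the 21 chaperone genes. Of these 14 genes, ISG15 and TAP1 rose in all 4 comparisons and are shown for that reason, and the other 12 did not. The other 10 genes of the list that rose in all 4 were not among the 14. Only 26 of the 35 genes had a promoter sequence, so some of these 10 may not have been searched. Capitals mark the letters of the core, which read TTTC on the minus strand.
ISG15, chr1:1013359-1013424, plus strand: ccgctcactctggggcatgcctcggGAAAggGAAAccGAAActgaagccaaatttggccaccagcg
TAP1, chr6:32853798-32853863, minus strand: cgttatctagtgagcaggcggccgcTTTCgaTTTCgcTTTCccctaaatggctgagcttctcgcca

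Among the 12 genes with the largest corrected rises in all 5 comparisons, 3 lay outside these lists. CDH15 (plus strand, chr16:89171748-89195492), a cadherin best known from muscle, was at 0.929, 0 and 0.444 CPM in COL1-PC3 and at 8.53, 6.72 and 8.38 CPM in COL1-PC3SFRP2, a log2 fold change of 4.12 (SE 0.64, edgeR adjusted p = 0.000676). The control libraries held only a few counts each, and its SFRP2 libraries were tight. POMK, a kinase that phosphorylates the mannose glycan of dystroglycan, was at 1.11, 1.42 and 1.11 CPM against 4.74, 5.5 and 7.18 CPM. ANXA6, a calcium-dependent membrane-binding annexin, was at 49.2, 41 and 41.6 CPM against 223, 196 and 197 CPM, without overlap and with a log2 fold change of 2.22 (SE 0.18, edgeR adjusted p = 1.12e-05). All 12 genes that rose passed under each of the 18 alternatives tried. Some of these alternatives were the fits by which the genes had been chosen, so passing in those was fixed in advance. The others reuse the same libraries, so this is no measure of stability.

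Of the 12 genes that fell most in all 5 comparisons, several encode transcription factors. AHR (plus strand, chr7:16916359-17346152), the aryl hydrocarbon receptor, was at 128, 147 and 149 CPM in COL1-PC3 and at 28.4, 22.2 and 10.8 CPM in COL1-PC3SFRP2. The groups were far apart, and the log2 fold change was -2.78 (SE 0.27, edgeR adjusted p = 3.81e-05), or -1.97 with correction and without the third library. FOXP1, a forkhead factor, was at 40.9, 41.7 and 38.5 CPM against 7.58, 10.1 and 9.18 CPM. TCFL5, a basic helix-loop-helix factor, was at 67.6, 61.9 and 74.5 CPM against 23.8, 25.8 and 11 CPM. HMX3 and ONECUT3, 2 homeobox genes with few counts, were at 4.88 to 7.62 and 4.1 to 7.88 CPM in COL1-PC3 and at 0.306 to 0.998 and 0.474 to 3.39 CPM in COL1-PC3SFRP2. In none of these 5 genes did the groups overlap. The ONECUT3 call was lost when the fit used the 6 collagen libraries only (edgeR adjusted p = 0.0555), and that of TCFL5 with the other column and GC correction together (edgeR adjusted p = 0.0726).

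SPTSSB (minus strand), a small subunit that stimulates serine palmitoyltransferase, the first enzyme of sphingolipid synthesis, was at 507, 606 and 727 CPM in COL1-PC3 and at 85.9, 103 and 45.1 CPM in COL1-PC3SFRP2. The groups were far apart, and the gene fell by 2.97 on the log2 scale (SE 0.26, edgeR adjusted p = 1.43e-05) or by 1.67 with correction and without the third library. With 35.6% GC it lies where most genes fell before correction. ABCA1, the cholesterol exporter, was at 21, 18.3 and 17.8 CPM against 2.84, 3.21 and 8.78 CPM, EDIL3, a matrix protein that binds integrins, at 5.57, 4.89 and 9.77 CPM against 0.158, 0.764 and 0.399 CPM, and MAN1A1, a Golgi mannosidase of N-glycan trimming, at 51.6, 58.9 and 59.7 CPM against 11.8, 15.4 and 6.38 CPM. The groups did not overlap in any of them. PHACTR3, a phosphatase and actin regulator, fell from 97.9, 100 and 114 CPM to 22.6, 34.4 and 77.8 CPM, the third SFRP2 library being nearest to the controls. Its call was lost with the 6 collagen libraries only (edgeR adjusted p = 0.0662).

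Genes that moved against the GC trend were few. Among the third of genes lowest in GC content (at most 43.6%), 25 of 6496 rose in all 4 comparisons (0.385%) while 566 fell (8.71%). Among the third highest in GC content (at least 53.2%), 60 of 6298 fell (0.953%) while 356 rose (5.65%). The low-GC genes with the largest corrected rises were DNAJC9, a histone co-chaperone, IDS, the lysosomal iduronate sulfatase, DMAC1 and ATP5MC3, which serve the respiratory chain and ATP synthase, MRPL22 of the mitochondrial ribosome, the atlastin gene ATL1, FAM229B and SELENOK, a selenoprotein of the ER membrane. DNAJC9 was at 13, 9.79 and 14.3 CPM in COL1-PC3 and at 28.3, 32.2 and 46.9 CPM in COL1-PC3SFRP2, without overlap. SELENOK was at 33.3, 35.4 and 39 CPM against 56.1, 61 and 38.7 CPM, and the third SFRP2 library fell within the control range. The SELENOK call was also lost when any 1 of the other 5 collagen libraries was left out, that of FAM229B without COL1-PC3 library 3, and that of ATL1 without COL1-PC3 library 2 or COL1-PC3SFRP2 library 2. SELENOK alone of these 8 also passed with the other column (edgeR adjusted p = 0.0391), where the adjusted p of the other 7 ran from 0.0532 to 0.31.

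The high-GC genes that fell most were HMX3 and ONECUT3, described above, and DNAAF3, ZNF232-AS1, SAPCD2, KRTAP2-3, JUND and KBTBD11. DNAAF3, an assembly factor of axonemal dynein, had 62.6% GC and was at 90.1, 87.5 and 63.5 CPM in COL1-PC3 and at 22.3, 17.3 and 15.6 CPM in COL1-PC3SFRP2. The log2 fold change was -2.12 (SE 0.21, edgeR adjusted p = 3.81e-05) and -2.80 with correction and without the third library, but the call was lost with the other column and GC correction together (edgeR adjusted p = 0.128). JUND, an AP-1 factor with 69.9% GC, was at 179, 117 and 82.5 CPM against 54.8, 40.6 and 38.9 CPM, also without overlap. SAPCD2, a spindle orientation protein, was at 37.3, 39.6 and 30.7 CPM against 12.9, 11.9 and 26.1 CPM. The last 5 of these genes gave edgeR adjusted p from 0.141 to 0.186 with the other column. Their calls were thus lost with that column, but were kept when the third library was left out. KRTAP2-3 shares reads with near-identical keratin-associated genes, and ZNF232-AS1 overlaps a gene on the other strand, so both values are uncertain.

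Some of the largest fold changes of the full comparison also lost their call with the other column, though not when the third library was left out. CKLF, a chemokine-like gene, was at 6.13, 6 and 7.55 CPM in COL1-PC3 and at 0.316, 0.153 and 0 CPM in COL1-PC3SFRP2, a log2 fold change of -5.17 (SE 0.52, edgeR adjusted p = 5.02e-05). PCLAF, a factor that binds the replication clamp PCNA, was at 72.8, 97.7 and 128 CPM against 4.9, 6.42 and 4.59 CPM (log2 fold change -4.22, SE 0.35, edgeR adjusted p = 1.22e-05). PCDHB2, a clustered protocadherin, was at 8.17, 5.68 and 7.88 CPM against 0.948, 0.458 and 0.399 CPM. In all 3 the groups were far apart and stayed so without the third library, but the other column held 6.99, 73.8 and 5.48 CPM of its total, within or close to the control range, and none passed with it. CKLF overlaps a neighbouring readthrough gene. The rises of ZNF837 and RHOF, a small GTPase of filopodia, were likewise lost with the other column (edgeR adjusted p = 0.125 and 0.156).

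Genes of DNA replication and mitosis moved in different ways. Of 36 S phase genes, 14 rose (38.9%) and 7 fell (19.4%) in the full comparison, beside 18.1% and 17.1% of all genes. With correction and without the third library 12 rose (33.3%) and 2 fell (5.56%), beside 8.99% and 11.1%, and with the other column 1 rose. The genes MCM2, MCM3 and MCM7 of the replicative helicase, its partners CDC45 and GINS4, and UHRF1, which couples replication to DNA methylation, were among those that rose in all 4 comparisons. The GINS4 call was lost without COL1-PC3 library 1 or 2 or COL1-PC3SFRP2 library 1. UHRF1 was at 6.69, 6.79 and 9.21 CPM in COL1-PC3 and at 26.2, 22 and 50.9 CPM in COL1-PC3SFRP2, and PCLAF was the list's gene that fell in all 4. Of 30 genes of G2 and mitosis, 3 rose (10%) and 16 fell (53.3%) in the full comparison, beside 18.1% and 17.1% of all genes, with a list median of -0.74. After correction and without the third library 1 rose (3.33%) and 11 fell (36.7%), beside 8.99% and 11.1% of all genes, with a median of -0.19. KIF11, the kinesin that separates the spindle poles, was at 109, 127 and 128 CPM against 40.9, 47.2 and 15.4 CPM. The spindle genes TPX2, CENPE and HMMR, the checkpoint kinase genes TTK and BUB1B, the topoisomerase gene TOP2A and the cyclin gene CCNB2 fell with it in all 4 comparisons, while the kinesin gene KIF2C rose. No gene of G2 and mitosis passed edgeR's test with the other column, where 11 were lower and 0 higher at an unadjusted p under 0.05. With the other column and GC correction together 7 fell (23.3%) and none rose, beside 4.43% and 3.57% of all genes.

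Of 32 genes of cholesterol and fatty acid synthesis, 19 rose (59.4%) and 4 fell (12.5%) in the full comparison, beside 18.1% and 17.1% of all genes. In the corrected fit without the third library 11 rose (34.4%) and 3 fell (9.38%), beside 8.99% and 11.1% of all genes. The list's median log2 fold change was 0.87 and 0.16 in these comparisons. FDPS, the farnesyl diphosphate synthase, was at 57.2, 48 and 46.5 CPM in COL1-PC3 and at 121, 107 and 113 CPM in COL1-PC3SFRP2, without overlap. FDPS, MVK, NSDHL and HSD17B7 rose in all 4 comparisons and the desaturase gene SC5D fell. CYP51A1 was also called in all 4, but it had no count in COL1-PC3 and at most 2.99 CPM in COL1-PC3SFRP2. Of 32 genes of glycolysis and hypoxia, 16 rose (50%) and 2 fell (6.25%) in the full comparison, beside 18.1% and 17.1% of all genes. The corrected fit without the third library had 8 that rose (25%) and 3 that fell (9.38%), beside 8.99% and 11.1% of all genes. NDRG1, a hypoxia-induced gene, was at 89.6, 81.1 and 69.2 CPM against 178, 178 and 760 CPM, highest by far in the third library. Its log2 fold change of 2.22 was 1.17 without that library and 0.71 with correction as well. PFKL, the liver type phosphofructokinase, was at 36.4 to 36.9 CPM against 89.4, 86.9 and 279 CPM, again highest in the third library. No gene of these 2 lists passed edgeR's test with the other column, where 8 and 5 were higher and 2 and 1 lower at an unadjusted p under 0.05. With the other column and GC correction together 7 (21.9%) and 2 (6.25%) rose, and 2 (6.25%) of each fell, beside 3.57% and 4.43% of all genes.

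Counts of mitochondrial genes took 24%, 21.4% and 21.2% of the COL1-PC3 libraries and 13.7%, 16.8% and 7.17% of the COL1-PC3SFRP2 libraries (22.2% ± 1.57 against 12.6% ± 4.93, SD, n = 3 each). The groups did not overlap and the third library was the lowest. The difference of -9.63 percentage points had an exact two-sided permutation p of 0.1, the smallest that 3 against 3 libraries allow, and it was -6.93 without the third library. Of the 13 messenger RNAs of the mitochondrial genome, 12 fell in the full comparison (92.3%, beside 17.1% of all genes). With correction and without the third library 9 fell (69.2%, beside 11.1%). The medians were -0.86 and -0.47. MT-ND6, the only one encoded on the opposite strand to the rest, was at 1969, 1381 and 1569 CPM in COL1-PC3 and at 712, 651 and 214 CPM in COL1-PC3SFRP2. MT-CO1, MT-ND1, MT-ND4 and MT-ND5 fell with it in all 4 comparisons, and of these 5 only MT-ND6 passed with the other column, where 6 of the 13 fell. MT-ND4L, which overlaps MT-ND4, had a log2 fold change of 0.04 (edgeR adjusted p = 0.895), and overlapping or neighbouring genes of this genome cannot be separated cleanly by counts.

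Core histone genes mostly give transcripts without poly(A) tails. Of 29 tested, 2 rose (6.9%) and 4 fell (13.8%) in the full comparison, both shares below those of all genes, and the list's median log2 fold change was 0.08. None rose and 10 fell (34.5%) by edgeR's test and by DESeq2 with correction and without the third library (0 higher and 11 lower at an unadjusted edgeR p under 0.05). Of all genes 8.99% rose and 11.1% fell there by edgeR's test. H3C10 was at 21, 17.8 and 23.1 CPM in COL1-PC3 and at 9.48, 8.4 and 10.8 CPM in COL1-PC3SFRP2, and H4C8 at 61.7, 57.6 and 52.2 CPM against 19.4, 25.2 and 14 CPM. The groups did not overlap in these 2 genes, whose reads may be shared among histone copies of the same kind, and the H3C10 call was lost with the other column and GC correction together (edgeR adjusted p = 0.0539).

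**Figure D4:**
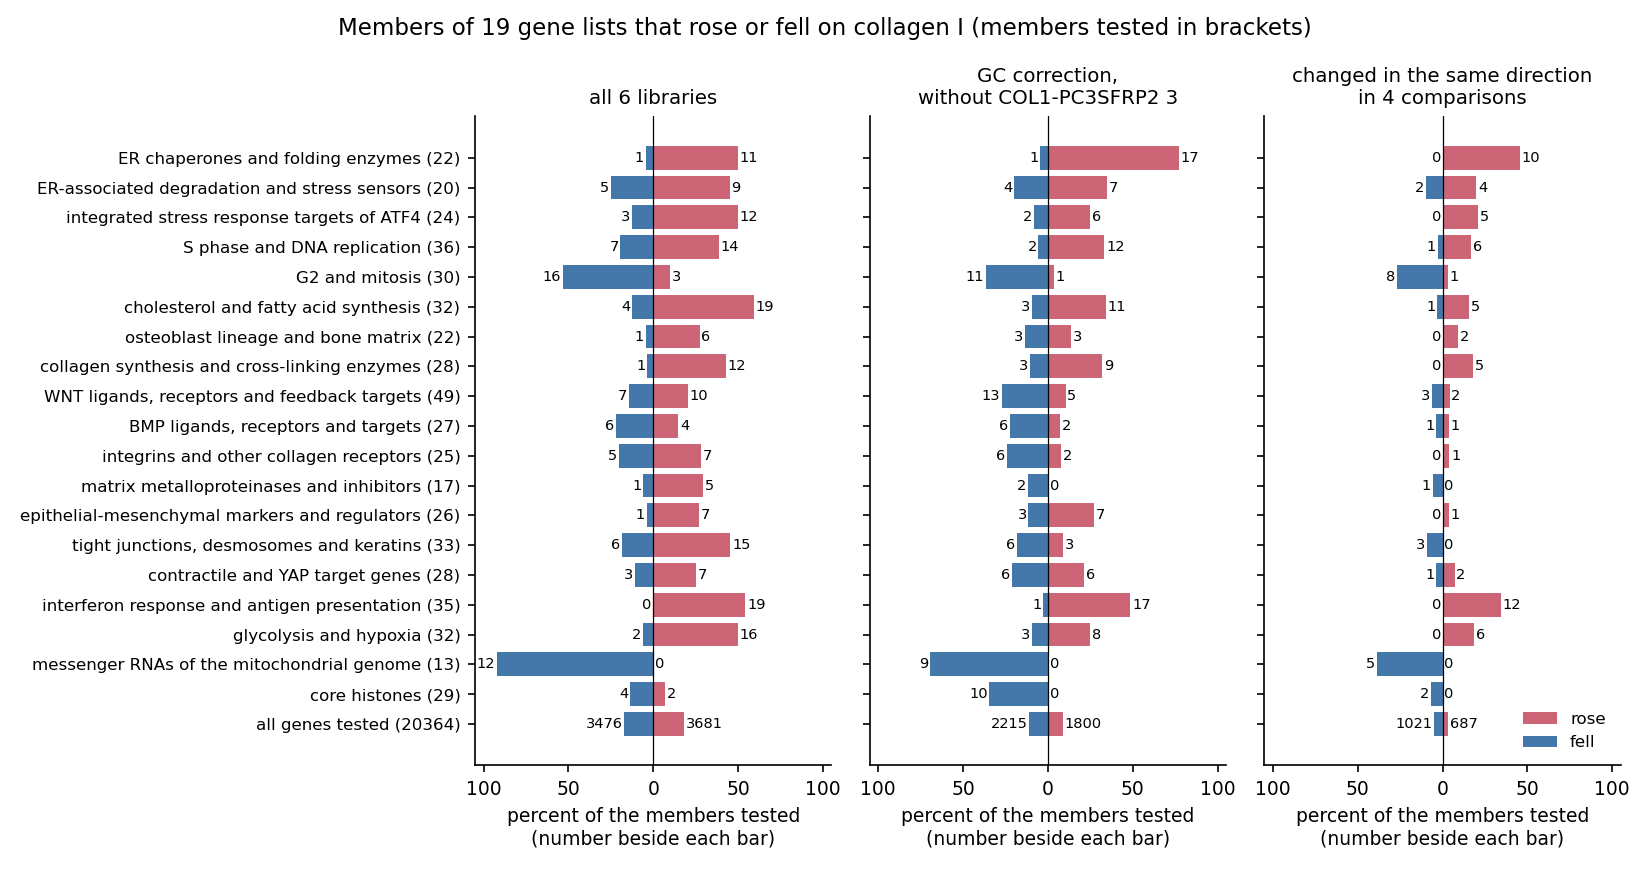
Share of the tested members of the 19 gene lists that rose (red) or fell (blue), in percent on the x axis with the number beside each bar, over all 6 libraries, with GC correction and without the third COL1-PC3SFRP2 library, and in the same direction in all 4 comparisons. In the last panel 10 of the 22 ER chaperone genes and 12 of the 35 interferon genes rose and none fell, 8 of the 30 G2 and mitosis genes fell and 1 rose, and 687 of all genes rose and 1021 fell.

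The next lists hold genes of bone, of the collagen surface and of adhesion, and their shares are to be read against 18.1% of all genes that rose and 17.1% that fell in the full comparison, and 8.99% and 11.1% with correction and without the third library. Of the 22 osteoblast and bone matrix genes tested out of 34 listed, 6 rose (27.3%) and 1 fell (4.55%) in the full comparison and 3 rose and 3 fell (13.6% each) with correction and without the third library. DLX3 and PTN rose in all 4 comparisons (9.09% of the list, beside 3.43% of all genes). None of the 22 passed edgeR's test with the other column, with 5 higher and 2 lower at an unadjusted p under 0.05. With the other column and GC correction together 2 rose (9.09%) and 1 fell (4.55%), beside 3.57% and 4.43% of all genes. DLX3, a homeobox factor of the osteoblast and epidermal lineages, was at 0.929, 0.316 and 0.666 CPM in COL1-PC3 and at 5.21, 3.97 and 2.99 CPM in COL1-PC3SFRP2, and PTN, a heparin-binding growth factor, was at 0 to 0.186 CPM against 1.42, 2.44 and 0.2 CPM. SPARC, a collagen-binding matrix protein, had no count in COL1-PC3 and 0, 2 and 24 counts in the COL1-PC3SFRP2 libraries, so its call came from the third library and was lost without it (edgeR adjusted p = 0.204), as it was without COL1-PC3 library 2 or 3. The PTN call was lost without COL1-PC3 library 3 or COL1-PC3SFRP2 library 2. RUNX2, the osteoblast master factor, was at 19 to 20.1 CPM against 19.3, 21.7 and 15.8 CPM, overlapping between groups. In the chondrocyte genes SOX9 and COL2A1 the third library lay on the other side of the controls than its group: SOX9 was at 185, 156 and 154 CPM in COL1-PC3 and at 128, 110 and 546 CPM in COL1-PC3SFRP2, and COL2A1 was at 33.9, 30.3 and 23.8 CPM of the library total against 3.32, 3.01 and 123 CPM.

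Of 28 enzymes of collagen synthesis and cross-linking, 12 rose (42.9%) and 1 fell (3.57%) in the full comparison and 9 rose (32.1%) and 3 fell (10.7%) with correction and without the third library. In all 4 comparisons 5 rose (17.9%, beside 3.43% of all genes) and none fell. TGM2, tissue transglutaminase, was at 990, 839 and 691 CPM in COL1-PC3 and at 1946, 1510.0 and 1949 CPM in COL1-PC3SFRP2, without overlap (log2 fold change 1.10, SE 0.18, edgeR adjusted p = 0.000784). The lysyl hydroxylases PLOD1 and PLOD3, the prolyl hydroxylase subunit P4HA2 and the collagen chaperone FKBP10 also rose in all 4 comparisons, by 1.46, 1.65, 0.48 and 1.63 in the full one and by 0.34, 0.38, 0.64 and 0.55 with correction and without the third library. The uncorrected call of P4HA2 was lost when any 1 of the other 5 collagen libraries was left out. None of the 28 passed edgeR's test with the other column, where 8 were higher and 0 lower at an unadjusted p under 0.05. With the other column and GC correction together 5 rose (17.9%) and 1 fell (3.57%), beside 3.57% and 4.43% of all genes. COL1A1 itself was at 10.2, 7.89 and 7.55 CPM against 14.8, 8.1 and 12.6 CPM and did not pass (edgeR adjusted p = 0.183). It is the human gene, and the coated collagen came from rat tail.

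Of 49 WNT pathway genes tested out of 57 listed, 10 rose (20.4%) and 7 fell (14.3%) in the full comparison, close to the shares of all genes. With correction and without the third library 5 rose (10.4%) and 13 fell (27.1%), and with the other column 3 fell. DKK1, a secreted WNT inhibitor, was at 1927, 2105 and 1992 CPM in COL1-PC3 and at 983, 1044 and 477 CPM in COL1-PC3SFRP2. It fell in all 4 comparisons, by 1.27 in the full one (SE 0.23, edgeR adjusted p = 0.0012) and by 0.68 with correction and without the third library. The receptor genes FZD6 and LGR4 fell with it, and LGR4 also passed with the other column (edgeR adjusted p = 0.0236). FZD2 and the receptor adaptor gene DVL1 rose. Of the ligands, WNT10B was at 1.11, 0.789 and 0.111 CPM against 3.95, 3.21 and 2.99 CPM, but its call was lost with GC correction over all 6 libraries (edgeR adjusted p = 0.0564) and with the other column (edgeR adjusted p = 0.157). WNT4, at 1.3, 0.789 and 0.222 CPM against 1.74, 2.14 and 12.6 CPM, lost its call without the third library (edgeR adjusted p = 0.0856), with GC correction (edgeR adjusted p = 0.1), with the other column (edgeR adjusted p = 0.47) or without COL1-PC3 library 3.

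Of 27 BMP genes 4 rose (14.8%) and 6 fell (22.2%) in the full comparison, shares close to those of all genes, and 2 rose (7.41%) and 6 fell (22.2%) with correction and without the third library. The receptor gene BMPR1B fell by 1.75 in the full comparison, but with GC correction over all 6 libraries its log2 fold change was -0.66 (edgeR adjusted p = 0.148). BMPR2 fell by 1.43 and, with correction, by 0.62, and its call was lost with the other column (edgeR adjusted p = 0.152). The target gene ID1 rose by 1.25, or 0.28 with correction and without the third library. GDF15, a stress-induced member of the family, was at 24.7, 17.8 and 17.6 CPM in COL1-PC3 and at 21.5, 19.9 and 102 CPM in COL1-PC3SFRP2. Its rise of 1.24 came from the third library, and without that library the log2 fold change was 0.06 (edgeR adjusted p = 0.833). With correction as well it was -0.73 (edgeR adjusted p = 0.000193).

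Of 25 integrins and other collagen receptors, 7 rose (28%) and 5 fell (20%) in the full comparison and 2 rose (8%) and 6 fell (24%) with correction and without the third library. None passed with the other column by edgeR's test, with 3 higher and 4 lower at an unadjusted p under 0.05. With the other column and GC correction together 1 rose (4%) and 4 fell (16%), beside 3.57% and 4.43% of all genes. ITGB5 was at 11.3, 8.68 and 10.2 CPM in COL1-PC3 and at 24.2, 24 and 39.5 CPM in COL1-PC3SFRP2 and rose in all 4 comparisons. ITGA6, ITGB6 and ITGB8 fell in the full comparison, by 0.82, 1.47 and 1.33, and by 0.58, 1.42 and 0.55 with correction and without the third library. With correction over all 6 libraries their log2 fold changes were -0.15, -0.54 and -0.33, and none of the 3 passed (edgeR adjusted p = 0.693, 0.524 and 0.158). ITGB2, the leukocyte integrin chain, rose by 2.28 in the full comparison, but at 28.4, 30.7 and 144 CPM the third SFRP2 library was far above the others, and with correction and without that library it did not pass (log2 fold change 0.43, edgeR adjusted p = 0.0565). Of 17 metalloproteinases and inhibitors, 5 rose (29.4%) and 1 fell (5.88%) in the full comparison, and none rose and 2 fell (11.8%) by edgeR's test and by DESeq2 with correction and without the third library (1 higher and 2 lower at an unadjusted edgeR p under 0.05). None passed with the other column, with 1 higher and 1 lower at an unadjusted edgeR p under 0.05. With the other column and GC correction together none rose and 2 fell (11.8%), beside 3.57% and 4.43% of all genes. MMP14, the membrane-bound collagenase, was at 34.7, 28.6 and 31.8 CPM against 62.5, 60.8 and 85.8 CPM (log2 fold change 1.14, or 0.30 with correction and without the third library, which did not pass). The inhibitor gene TIMP2 fell in all 4 comparisons, by 0.43 in the full one and by 0.97 in the corrected one without the third library, but the uncorrected call was lost when any 1 of the other 5 collagen libraries was left out.

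Of 26 epithelial-mesenchymal genes, 7 rose (26.9%) and 1 fell (3.85%) in the full comparison, and 7 rose (26.9%) and 3 fell (11.5%) with correction and without the third library. A single gene rose with the other column. GRHL2, a factor of epithelial identity, rose in all 4 comparisons but not with the other column (edgeR adjusted p = 0.292), at 46.3, 44.4 and 47.4 CPM in COL1-PC3 and 65.5, 65.7 and 99.4 CPM in COL1-PC3SFRP2. TGFB1 rose by 1.04 in the full comparison, a call lost without any 1 of COL1-PC3 libraries 2 and 3 and the third SFRP2 library, but fell by 0.28 with correction and without the third library (edgeR adjusted p = 0.0403). TWIST1, at 13.9, 13.1 and 14.8 CPM against 6.47, 8.25 and 14.4 CPM, overlapped between groups through the third library and fell by 0.91 without it. Of 33 junction and keratin genes, 15 rose (45.5%) and 6 fell (18.2%) in the full comparison, and 3 rose (9.09%) and 6 fell (18.2%) with correction and without the third library. CLDN1, a claudin of the tight junction, was at 41.4, 42.6 and 41.9 CPM in COL1-PC3 and at 12.2, 14.8 and 12.4 CPM in COL1-PC3SFRP2, without overlap, and it fell also with the other column (log2 fold change -1.37, edgeR adjusted p = 0.00266). The desmosomal cadherin gene DSG2 and the junctional adhesion gene F11R fell in all 4 comparisons as well, but not with the other column (edgeR adjusted p = 0.163 and 0.376).

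Of 28 contractile and YAP target genes, 7 rose (25%) and 3 fell (10.7%) in the full comparison and 6 rose and 6 fell (21.4% each) with correction and without the third library. The other column gave 2 that rose and 1 that fell. CCN1, a matricellular target of YAP, was at 216, 225 and 198 CPM in COL1-PC3 and at 473, 464 and 522 CPM in COL1-PC3SFRP2, without overlap, and rose in all 5 comparisons (log2 fold change 1.19, SE 0.15, edgeR adjusted p = 0.000268). The actin cross-linker gene ACTN1 rose and the adhesion gene VCL fell in the 4, and neither passed with the other column (edgeR adjusted p = 0.208 and 0.145). WWTR1, which encodes the YAP partner TAZ, was at 283, 261 and 264 CPM against 116, 128 and 235 CPM, and its log2 fold change of -0.76 became 0.03 with GC correction over all 6 libraries. With correction and without the third library it was -0.74 (edgeR adjusted p = 6.75e-11), and with the other column -1.10 (edgeR adjusted p = 0.000785). The call of WWTR1 was also lost without COL1-PC3SFRP2 library 1.

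On uncoated plastic the same lines differed at far fewer genes in the full comparison: 16 of 20364 passed (0.0786%), 3 of them in the ER chaperone list. That fit shares 1 estimate of the spread over all 12 libraries. MANF, PDIA6 and HERPUD1 missed the threshold on plastic there (edgeR adjusted p = 0.0572, 0.0572 and 0.0543). With GC correction and without the third COL1-PC3SFRP2 library they passed (edgeR adjusted p = 6.25e-37, 8.22e-24 and 2.75e-19), while TXNDC5 and UHRF1 did not (0.848 and 0.519). The number of genes for that fit is not given. The difference between surfaces itself passed for 1287 genes (6.32%) and, with GC correction, for 531 (2.62%). The number rested on single libraries, with 2 genes when COL1-PC3 library 2 or library 3 was left out, 4050 without the third COL1-PC3SFRP2 library and 5515 without the second. With the other column in place of the third library it passed for none by edgeR's test, with 1296 genes at an unadjusted p under 0.05. PDIA4 rose by 1.67 on plastic and 2.35 on collagen, and EDIL3 had log2 fold changes of -3.77 and -3.89. For ISG15 the log2 fold change on plastic was 0.30 (edgeR adjusted p = 1.00), beside 2.67 on collagen.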

How the data were processed

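The series measured messenger RNA of 12 libraries in 4 groups of 3. Per the labels and the methods of the study, the authors made mRNA libraries with a SENSE mRNA-Seq kit, clipped adaptors, mapped reads to GRCh38 by STAR, and the deposited values are raw counts for each Ensembl gene. The counting tool and its strand setting are not given in the sources used here. The deposited workbook also held 56 columns that were not used, since their names are of samples already taken from another sheet or match no sample. The deposited counts were tested in R 4.3.3 with edgeR 4.0.16 (TMM scaling, quasi-likelihood test, Benjamini-Hochberg adjustment, two-sided) over all 12 libraries, for genes with at least 10 counts in sum. For the GC correction, the deviation of each library's log2 CPM was fitted by splines of transcript GC content (5 df) and log2 length (3 df) over genes of mean CPM of at least 1, and added to the offset. GC content, length and positions came from a GENCODE annotation of GRCh38, to which 60357 of 60676 IDs matched. SE was the fold change divided by the root of F.

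Named genes were SFRP2, the 12 with the largest corrected rise and the 12 with the largest corrected fall among those called in all 5 comparisons at a mean of at least 5 CPM, 8 and 8 against the GC trend, up to 4 called genes of each of 19 lists, and the 3 highest and 3 lowest fold changes whose call was lost with correction or the other column. Some genes that the rule or the lists hold are not reported here. Further list members named in the text were chosen after their values were seen. The lists, like the comparison, were chosen with earlier results of these data known. On counts simulated for this contrast with a GC trend and 200 changed genes, the uncorrected test called 3795 of 19484 unchanged genes (19.5%) and the corrected one 6. The simulated trend followed the same GC values that the correction fits, so its removal was largely fixed in advance. It was put into the COL1-PC3SFRP2 libraries only, whereas the measured COL1-PC3 libraries also carry trends. The 6 calls are therefore no rate of false calls in the measured data. The corrected test recovered 47 of 50 genes simulated to rise by 2 on the log2 scale and 38 of 50 simulated to fall by 2, and 12 and 18 of 50 at 1. Counting intervals cover sampling of reads only, so genes at a few CPM, which hold few counts in libraries of this depth, are imprecise. The 18 alternatives included DESeq2 1.42.0, other scaling, other filters, a second deposited alignment, the collagen libraries only, a block on the replicate number and leaving out each library.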

Additional observations from a re-analysis of the deposited data

Results flagged for a closer look

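For 20 of the 110 named genes the difference of SFRP2 cells from control cells itself differed between collagen I and uncoated plastic, by edgeR's quasi-likelihood test of the interaction with Benjamini-Hochberg adjustment, in all 4 comparisons with and without the third library and GC correction. Of the 117 genes that changed in all 5 comparisons, 26 did so, 11 with a higher and 15 with a lower log2 fold change on collagen. The 117 genes, and most of the 110 named genes, were chosen for a change on collagen, which is part of this interaction. How many of all genes passed it in the same 4 comparisons is not given here, so neither count can show an excess. Adjusted p-values below are of the full comparison, and each difference is the log2 fold change on collagen less that on plastic.

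In 6 of the 20 genes the log2 fold change was higher on collagen. SDF2L1 rose by 2.18 more (3.33 on collagen and 1.14 on plastic, adjusted p = 0.0168), and ISG15 by 2.38 more (2.67 and 0.30, adjusted p = 0.0168). TXNDC5 differed by 3.91 (3.63 and -0.28, adjusted p = 0.0333), UHRF1 by 2.39 (2.11 and -0.28, adjusted p = 0.0253), DNAJC9 by 1.45 (1.52 and 0.08, adjusted p = 0.0344) and CCN1 by 0.80 (1.19 and 0.39, adjusted p = 0.0432). TXNDC5, UHRF1 and DNAJC9 were not called on collagen with the other column.

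The other 14 had a lower log2 fold change on collagen. AHR differed by -2.33 (-2.78 on collagen and -0.45 on plastic, adjusted p = 0.0168), MAN1A1 by -1.88 (-2.32 and -0.45, adjusted p = 0.0265), FOXP1 by -1.67 (-2.17 and -0.50, adjusted p = 0.0187) and TCFL5 by -1.57 (-1.74 and -0.17, adjusted p = 0.0333). DNAAF3 differed by -1.68 (-2.12 and -0.44, adjusted p = 0.021), although its own change on collagen was not called with the other column and GC correction together (adjusted p = 0.128). MT-ND6 differed by -1.53 (-1.64 and -0.11, adjusted p = 0.0484) and H4C8 by -1.19 (-1.54 and -0.35, adjusted p = 0.0379). The remaining 7 were not called on collagen with the other column. These were CKLF (-4.55, adjusted p = 0.0143), PCLAF (-3.89, adjusted p = 0.00261), PCDHB2 (-3.28, adjusted p = 0.021), ZNF232-AS1 (-2.15, adjusted p = 0.0395), KIF11 (-1.56, adjusted p = 0.0403), BMPR2 (-1.51, adjusted p = 0.0393) and DSG2 (-1.49, adjusted p = 0.0427).

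In each of the 20 genes all 3 COL1-PC3SFRP2 libraries lay on 1 side of the COL1-PC3 libraries. Each gene had been named for a call on collagen, so this separation was largely set by the choice. Its share over all genes was not counted. With the other column in place of the third COL1-PC3SFRP2 library, no gene passed the interaction test (1296 at an unadjusted p under 0.05), and when COL1-PC3 library 2 or library 3 was left out 2 genes passed.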

How the results depend on the processing

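Over the alternatives of the named genes, 1645 values kept their direction and their side of the threshold, 314 kept the direction without passing and 15 changed sign. Many of these genes were named for being called in the same direction in some of the same fits, so this count is no measure of stability. The number of genes changed between COL1-PC3SFRP2 and COL1-PC3 (7157, of which 3681 rose and 3476 fell) ranged from 4401 to 8296 when 1 library was left out, with 2262 to 4082 that rose and 2139 to 4214 that fell. Genes changed beyond 2 on the log2 scale ranged from 378 to 1348, genes that differed between surfaces from 2 to 5515, genes changed with GC correction from 2103 to 4015, low-GC genes that rose from 13 to 66, high-GC genes that fell from 39 to 120, the GC correlation from 0.731 to 0.828 and the mitochondrial difference from -11.8 to -6.93 percentage points. With the 6 collagen libraries only, which leaves fewer samples to estimate the spread, 2522 genes changed (1489 rose, 1033 fell, 390 beyond 2), 1129 with GC correction, with 4 low-GC genes that rose and 21 high-GC genes that fell. With the other column for the third library, 223 changed (75 rose, 148 fell, 30 beyond 2), 0 differed between surfaces, 6 low-GC genes rose and 14 high-GC genes fell, and the GC correlation was 0.599. Of those calls, 65 that rose and 111 that fell were also called in the full comparison. With the other column and GC correction, 1626 changed (726 rose, 900 fell, 72 beyond 2) and 16 differed between surfaces.

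With GC correction 3191 genes changed (1549 rose, 1642 fell, 215 beyond 2) and 531 differed between surfaces, and without the third library as well 4015 changed (1800 rose, 2215 fell, 210 beyond 2). DESeq2 and the fit with no filter on low counts gave 3837 and 3710 genes that differed between surfaces, beside 1287. The second alignment, which held 2 matched COL1-PC3SFRP2 libraries, gave 354 genes beyond 2, 4008 that differed between surfaces, 81 low-GC genes that rose and 118 high-GC genes that fell. The cause of these differences was not tested.

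Deviations of same-numbered libraries correlated at -0.29, 0.07 and -0.44 on collagen, and those of other-numbered libraries at -0.49 to 0.47. These deviations were taken without GC correction and hold the GC trends of the libraries, so they cannot show whether the replicate numbers pair the samples. With the replicate block 6170 genes changed and 2 differed between surfaces. With the replicate block and GC correction 2895 changed (1368 rose, 1527 fell, 170 beyond 2) and 395 differed between surfaces.

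Sign changes fell on 5 genes. SAPCD2 had a log2 fold change of 0.20 in the second alignment. GDF15 was at -0.35 with the other column, -0.040 with GC correction, -0.73 without the third library as well, -0.84 with the other column and correction, and -0.13 with block and correction. TGFB1 was at -0.19, -0.28, -0.21 and -0.19 in these 4 corrected fits and ESRP2 at -0.083, -0.28, -0.22 and -0.090, and WWTR1 was at 0.031 with GC correction.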
